A study of Mus musculus with 8 samples.

Results

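The 10 factors described here are the transcription regulators Gata1, Gata2, Tal1, Fli1, Runx1, Nfe2, Klf1, Zfpm1, Lmo2 and Gfi1b, followed across bone marrow and fetal liver of wild-type mice and of mice without Col18a1. They were taken by name, and only probe sets that the array's annotation assigns to a single gene were used. This gave 18 of the 45101 probe sets and 10 of the 18194 genes with such a probe set. Gene expression was measured with Affymetrix mouse whole-genome arrays on total RNA of cell suspensions. The 4 groups were bone marrow flushed from femur and tibia of 3-month-old male Col18a1+/+ mice, the same tissue of male Col18a1-/- mice, and fetal liver at embryonic day 14.5 of each genotype, with the sex of the embryos undetermined. All were of strain C57B6/J, no further allele or treatment is given, and Col18a1 encodes the alpha chain of collagen XVIII, a basement membrane proteoglycan. Each group held 2 arrays, and each array held RNA of 2 littermates pooled before extraction. Whether pools of different groups came from shared litters is not stated.

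These factors form the core network that directs progenitors towards platelet-forming megakaryocytes and red cells. Gata1 and Gata2 are zinc finger factors that bind GATA motifs, and Zfpm1 (FOG1) is the cofactor that Gata1 needs in both lineages. Tal1 is a basic helix-loop-helix factor that sits with Gata1, Lmo2 and Ldb1 in a complex on E-box and GATA motifs, where Lmo2 is the bridging adaptor that does not bind DNA itself. Runx1 and the ETS factor Fli1 act on the megakaryocyte side and in early blood formation. Klf1 activates adult globin and other red cell genes, and Nfe2 drives late platelet and globin genes. Gfi1b is a transcriptional repressor that acts within both lineages. The fetal liver at this stage is mainly a site of red cell production, while adult marrow also makes neutrophils, B cells and platelets in quantity.

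The RefSeq promoter table (GRCm38.p6) held windows for 7 of the 10 genes (Gata1, Gata2, Tal1, Runx1, Klf1, Zfpm1 and Gfi1b), 10 windows in all. The 250 bases before the start were searched on both strands. A GATA motif, AGATAA or TGATAA, was found in 3 of the 10 windows, in 3 genes, against 16.6% of all 32851 windows in the table. The 3 upstream sequences are shown because they are the ones in which members of this network carry the motif that Gata1 and Gata2 bind. They run 5′ to 3′ in the direction of transcription, and capitals mark the GATA match (TTATCA and TTATCT are matches on the opposite strand). Klf1 lies at chr8:84901732-84901981 on the plus strand, Gfi1b at chr2:28621983-28622232 on the minus strand and the first of 2 Tal1 windows at chr4:115056176-115056425 on the plus strand.
Klf1: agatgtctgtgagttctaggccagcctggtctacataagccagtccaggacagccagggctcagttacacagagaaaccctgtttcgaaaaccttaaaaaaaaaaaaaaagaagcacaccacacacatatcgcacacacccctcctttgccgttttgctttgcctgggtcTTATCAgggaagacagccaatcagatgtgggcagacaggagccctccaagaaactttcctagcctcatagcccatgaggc
Gfi1b: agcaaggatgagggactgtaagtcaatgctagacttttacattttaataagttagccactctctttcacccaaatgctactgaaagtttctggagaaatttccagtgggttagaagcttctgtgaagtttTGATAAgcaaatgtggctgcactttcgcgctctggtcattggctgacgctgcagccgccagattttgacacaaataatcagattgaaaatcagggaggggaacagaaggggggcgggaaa
Tal1: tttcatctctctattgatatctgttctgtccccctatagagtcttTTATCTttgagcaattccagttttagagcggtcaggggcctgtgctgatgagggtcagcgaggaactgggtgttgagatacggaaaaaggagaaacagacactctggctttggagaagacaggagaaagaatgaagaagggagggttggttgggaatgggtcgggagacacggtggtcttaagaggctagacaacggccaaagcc

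The match began 80 bases before the start in Klf1, 120 bases before it in Gfi1b and 205 bases before it in Tal1. In Gfi1b, an E-box of the form CANNTG, the kind of site bound by Tal1 with its partners, began at 113 bases, just after the GATA match and without overlap. Other motifs were counted in the same way, with overlapping matches of a motif allowed. The E-box occurred in 4 of the 10 windows and in 66.2% of all windows. The motif CCNCNCCC of Klf1-type factors occurred in 8 of the 10 and in 45.9% of all windows. The ETS motif GGAAGT occurred in 1 of the 10, that of Zfpm1 (19.7% of all windows), the Runx motif TGTGGT or TGCGGT in 1, that of Klf1 (18.6%), and the Nfe2 motif TGANTCA in 0 (6.75%). A match describes these letters and is no measure of binding.

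All 10 factors passed the filter on low values, as did all 18 of their probe sets. Array medians were close, 40.8 to 42.6 intensity units. Over all genes, which are not independent replicates, both arrays of a group correlated at r = 0.992 to 0.997. The median SD between the 2 arrays of a group over the 10 factors was 0.04 to 0.09 on the log2 scale, and over all genes it was 0.06 to 0.11. The largest SD among the factors, 0.56, was that of Fli1 in knockout fetal liver. Col18a1 itself was lower in knockout arrays on both of its probe sets: the differences were -2.03 and -1.34 (log2) in bone marrow (adjusted p 0.00268 and 0.0227 over all probe sets) and -1.003 and -1.62 in fetal liver (adjusted p 0.0546 and 0.0034). The sources used here do not say whether these probe sets fall within the deletion, so this checks the labels only in part. Sex-linked genes separated the fetal liver groups. Xist, which coats the silenced X chromosome of females, was at 11.04 and 11.22 on the wild-type fetal liver arrays and at 4.97 and 4.77 on the knockout ones, with 4.61 to 5.03 in bone marrow. The Y-linked gene Eif2s3y was at 3.29 and 3.00 against 9.38 and 9.42. Genotype in fetal liver, and tissue in wild-type arrays, therefore cannot be told apart from the sex of the pooled animals. Tissue also cannot be told apart from age.

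The first comparison was of the 2 tissues. In wild-type arrays Runx1 was 4.05-fold and Fli1 2.55-fold lower in fetal liver, and Lmo2, Nfe2, Zfpm1 and Gata2 were lower by 1.39-fold to 1.19-fold. Gata1 was 1.47-fold and Gfi1b 1.34-fold higher there, and Tal1 and Klf1 did not pass the test. Of the 10 factors 8 passed the test (adjusted p under 0.05 over all 13136 genes tested), 2 of them higher and 6 lower in fetal liver. Over all genes 65.9% passed, 39.2% higher and 26.8% lower. The median difference was -0.26 (log2) over the 10 factors and 0.14 over all genes. The 2 groups of arrays did not overlap for any of the 10 factors, which held for 84.8% of all genes. In knockout arrays 8 of 10 passed again, 3 higher and 5 lower, where 63.8% of all genes passed (36.6% higher and 27.1% lower), and the medians were -0.09 and 0.11. For 9 of the 10 the knockout groups did not overlap, against 82.4% of all genes. These tissues hold different cells, and in such bulk samples fewer cells of a type cannot be told apart from less RNA per cell.

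**Figure D1:**
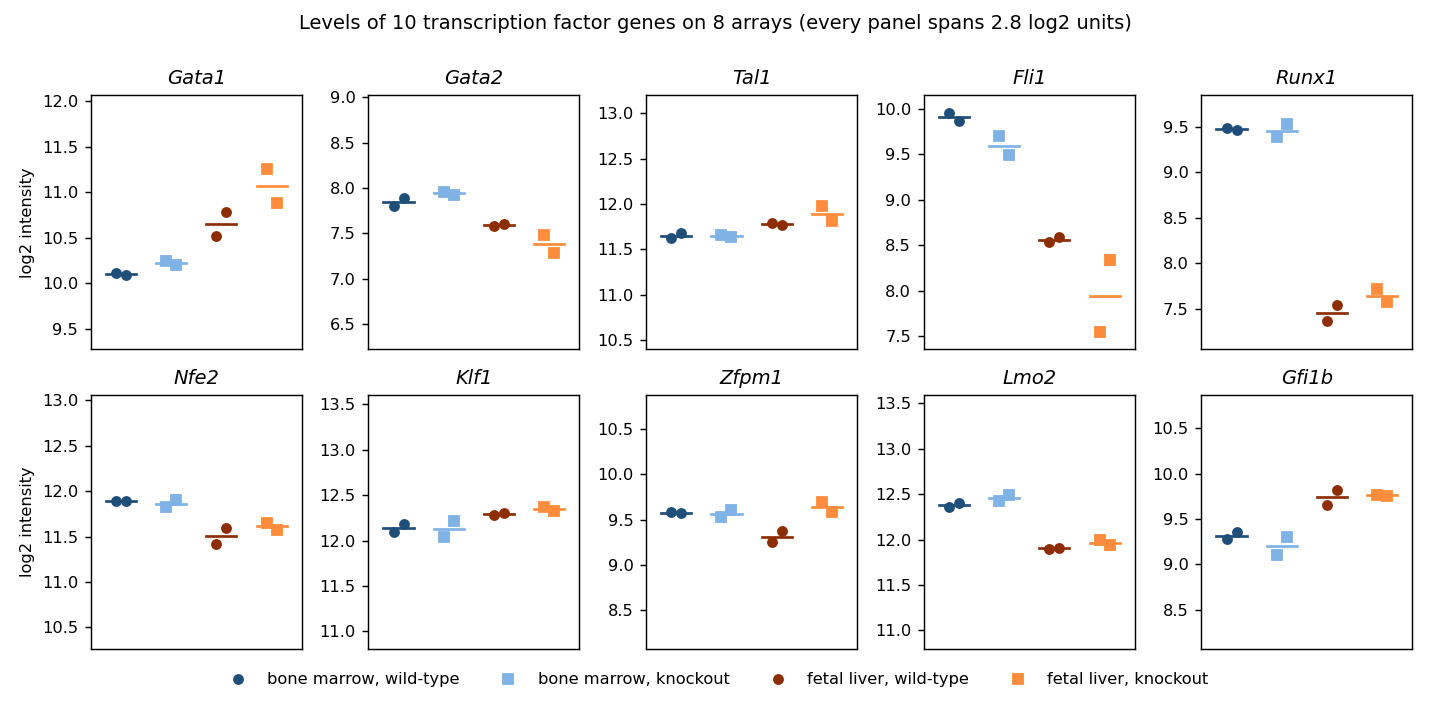
Log2 intensity (y axis) of the brightest probe set of each of the 10 factors on the 8 arrays, with 1 panel per gene. Circles are wild-type and squares knockout arrays, and a line marks each group's mean of 2 arrays. Runx1 and Fli1 show the widest gap between bone marrow and fetal liver in wild-type arrays, and those of Tal1 and Klf1 are narrow.

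Among the GATA factors, Gata1 (probe set 1449232_at, on the X chromosome) was at 10.11 and 10.09 on the wild-type and 10.25 and 10.20 on the knockout bone marrow arrays. In fetal liver it was at 10.52 and 10.78 in wild-type and 11.25 and 10.88 in knockout. Every fetal liver array was above every marrow array. The difference was 0.55 ± 0.14 (log2, SE; adjusted p 0.00664) in wild-type and 0.84 ± 0.14 in knockout (adjusted p 0.000656, 1.79-fold).

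Gata2 (1450333_a_at), which keeps stem and progenitor cells and mast cells going and gives way to Gata1 as red cells mature, ran the other way. It was at 7.80 and 7.89 in wild-type and 7.96 and 7.93 in knockout marrow, against 7.59 and 7.60 in wild-type and 7.48 and 7.29 in knockout fetal liver. All marrow arrays were above all fetal liver arrays. The difference was -0.25 ± 0.10 in wild-type (adjusted p 0.0462) and -0.56 ± 0.10 in knockout (adjusted p 0.000947). The wild-type call was lost without either wild-type or either knockout marrow array or without either wild-type fetal liver array (adjusted p 0.0689 to 0.208). The summed intensity of 9 mast cell and basophil markers was 2692 to 3203 on the marrow and 367 to 435 on the fetal liver arrays, with 3 of the 9 under 5 (log2) on each marrow array, and their part in the Gata2 difference was not tested. Stem and progenitor markers lay mostly in the other direction: 9 genes summed to 1059 to 1424 in marrow and 1422 to 1475 in fetal liver, ranges that just overlap. In wild-type arrays 5 of the 9 were higher and 3 lower in fetal liver (median 0.80), beside 39.2% and 26.8% of all genes. The part of these markers was not tested either.

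Zfpm1 (1451046_at), the Gata1 cofactor, was at 9.58 and 9.57 in wild-type and 9.52 and 9.61 in knockout marrow. In fetal liver it was at 9.25 and 9.37 in wild-type and at 9.69 and 9.58 in knockout. Only the wild-type fetal liver arrays stood apart, below all others. The tissue difference was -0.26 ± 0.09 in wild-type (adjusted p 0.0323), and it was not called without either wild-type marrow array (adjusted p 0.121 without replicate 1 and 0.109 without replicate 2) or without the first wild-type fetal liver array (0.155). In knockout arrays the difference was 0.07 ± 0.09 (adjusted p 0.523).

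In the Tal1 complex, Lmo2 (1454086_a_at) was at 12.36 and 12.40 in wild-type and 12.42 and 12.49 in knockout marrow, against 11.90 and 11.91 and then 12.00 and 11.94 in fetal liver. The arrays of the 2 tissues were well separated, with little spread within any group. The difference of Lmo2 was -0.48 ± 0.09 in wild-type (adjusted p 0.00104) and -0.49 ± 0.09 in knockout (adjusted p 0.00097). Its partner Tal1 (1449389_at) was at 11.62 and 11.68 in wild-type and 11.66 and 11.64 in knockout marrow, and at 11.80 and 11.77 and then 11.97 and 11.81 in fetal liver. The fetal liver arrays were all slightly above the marrow arrays. The difference was 0.13 ± 0.09 in wild-type (adjusted p 0.245, 95% interval -0.08 to 0.34) and 0.24 ± 0.09 in knockout (adjusted p 0.045). Leaving out any array other than the second knockout fetal liver one ended the knockout call (adjusted p 0.0578 to 0.179).

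Runx1 (1422864_at) showed the largest tissue difference of the 10 factors on their brightest probe sets. With all probe sets of a gene averaged, Fli1 came before it, at -1.52 against -1.06 in wild-type arrays. It was at 9.49 and 9.46 in wild-type and 9.38 and 9.53 in knockout marrow, against 7.37 and 7.54 in wild-type and 7.71 and 7.57 in knockout fetal liver. The gap between tissues was many times the spread within any group. It amounted to -2.02 ± 0.10 in wild-type (adjusted p 4.51e-07) and -1.82 ± 0.10 in knockout (adjusted p 8.83e-07, 3.52-fold).

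Fli1 (1433512_at) was at 9.96 and 9.86 in wild-type and 9.70 and 9.49 in knockout marrow. In fetal liver it was at 8.53 and 8.59 in wild-type and at 7.55 and 8.33 in knockout. The marrow arrays were all above the fetal liver arrays, and the 2 knockout fetal liver arrays lay far apart. The tissue difference was -1.35 ± 0.21 in wild-type (adjusted p 0.000515) and -1.66 ± 0.21 in knockout (adjusted p 0.000158, 3.15-fold). Runx1 and Fli1 are also active in other blood cells, and Fli1 in endothelium. The summed intensity of 12 neutrophil markers was 131620 to 135864 in marrow and 11052 to 15210.2 in fetal liver. For 9 B lineage markers it was 14367 to 15418 against 361 to 398, with 3 to 5 of the 9 under 5 (log2) on each fetal liver array. All 12 and all 9 passed the test as lower in fetal liver in both genotypes, beside 26.8% of all genes in wild-type and 27.1% in knockout arrays. Itgam, Ebf1, Rag1 and Ms4a1 passed the filter on low values only through marrow, so the filter favoured that direction. Endothelial markers ran the other way (13 genes, 874 to 1021 in marrow and 2785 to 2937 in fetal liver). On each marrow array 4 to 5 of the 13 were under 5 (log2). Tek, Tie1 and Ramp2 passed the filter only through fetal liver, so the filter favoured a higher level there. Of the 12 tested, 11 were higher in both genotypes, beside 39.2% of all genes in wild-type and 36.6% in knockout arrays. In wild-type arrays 1 of the 12, Pecam1, was lower. The part of these cells in the Runx1 and Fli1 differences was not tested.

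The 3 remaining factors act later in either lineage. Klf1 (1418600_at) was at 12.10 and 12.18 in wild-type and 12.04 and 12.21 in knockout marrow, and at 12.28 and 12.30 and then 12.37 and 12.32 in fetal liver. All fetal liver arrays were above all marrow arrays by a narrow margin. Neither difference was called, at 0.15 ± 0.10 in wild-type (adjusted p 0.194, 95% interval -0.07 to 0.37) and 0.22 ± 0.10 in knockout (adjusted p 0.0716, 95% interval 0.00 to 0.44).

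Nfe2 (1452001_at) was at 11.89 and 11.89 in wild-type and 11.82 and 11.90 in knockout marrow, against 11.42 and 11.59 and then 11.65 and 11.57 in fetal liver. Marrow was higher on every array. The difference was -0.39 ± 0.10 in wild-type (adjusted p 0.00604) and -0.25 ± 0.10 in knockout (adjusted p 0.048). The knockout call was lost without either marrow array of either genotype or without either knockout fetal liver array (adjusted p 0.0572 to 0.191).

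Gfi1b (1420399_at) was at 9.28 and 9.35 in wild-type and 9.11 and 9.30 in knockout marrow, and at 9.66 and 9.82 and then 9.76 and 9.76 in fetal liver. All fetal liver arrays were above all marrow arrays. The difference was 0.42 ± 0.10 in wild-type (adjusted p 0.00612) and 0.56 ± 0.10 in knockout (adjusted p 0.00144). The wild-type and knockout tissue comparisons use different arrays but share the estimate of the spread.

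**Figure D2:**
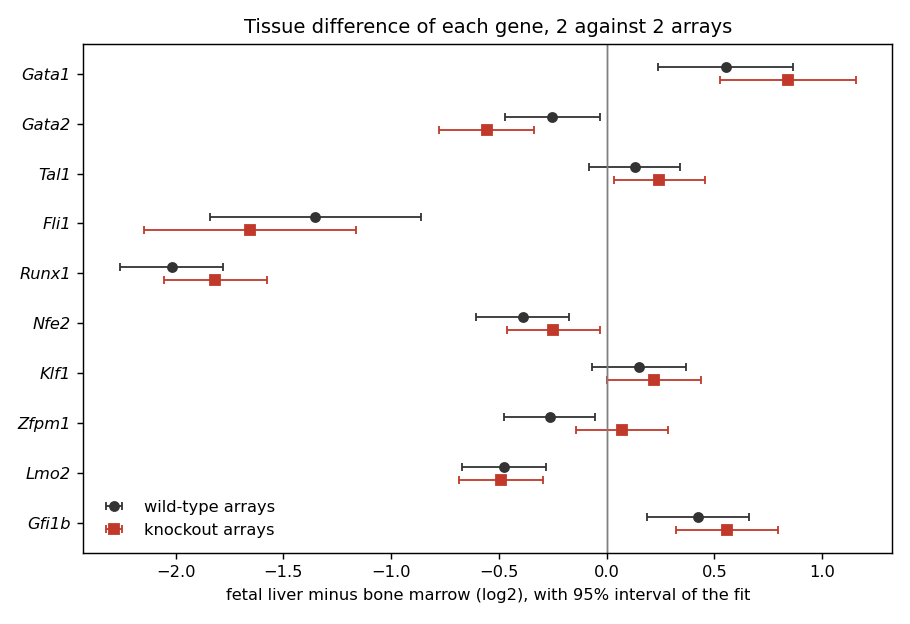
Fetal liver minus bone marrow (x axis, log2) for the brightest probe set of each of the 10 factors in wild-type arrays (circles) and knockout arrays (squares), with 95% intervals of the fit. Runx1 and Fli1 lie farthest to the left at -2.02 and -1.35 in wild-type arrays, and Gata1 farthest to the right at 0.55.

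Markers of hepatoblasts, the liver's own cells, summed over 9 genes such as albumin to 252 to 303 in marrow, where 5 to 7 of the 9 were under 5 (log2), and to 73417 to 77236 in fetal liver. Of 28 listed erythroid genes that these factors act on, 21 were on the array with a single-gene probe set and 20 were tested. In wild-type arrays 4 were higher and 6 lower in fetal liver, beside 39.2% and 26.8% of all genes, with a median of -0.01. Cpox, an enzyme of heme synthesis, rose by 0.90 ± 0.11 (adjusted p 0.000107) and the membrane skeleton gene Add2 by 0.71 ± 0.09 (adjusted p 9.9e-05), while Alas2, the first enzyme of heme synthesis in red cells, fell by 0.99 ± 0.12 (adjusted p 0.000115). In knockout arrays 6 were higher and 4 lower, beside 36.6% and 27.1% of all genes. The summed level of the 21 genes was 110292 to 118134 in marrow and 101093 to 114034 in fetal liver, ranges that overlap.

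All 16 listed cofactors of these factors were tested, and in wild-type arrays 5 were higher and 9 lower in fetal liver (median -0.38), where 65.9% of all genes passed, 39.2% higher and 26.8% lower. Cbfb, the partner that Runx1 needs to bind DNA firmly, was at 11.39 and 11.37 in wild-type marrow and 9.24 and 9.23 in wild-type fetal liver, the same direction as Runx1. It fell by 2.14 ± 0.09 (adjusted p 1.69e-07). Ldb1, which holds the Tal1 complex together with Lmo2, was at 7.39 and 7.41 in marrow and 8.39 and 8.23 in fetal liver, opposite to Lmo2. It rose by 0.91 ± 0.11 (adjusted p 7.11e-05). In knockout arrays Cbfb fell by 2.08 and Ldb1 rose by 1.04, and of the 16 cofactors 6 were higher and 8 lower, where 36.6% of all genes were higher and 27.1% lower.

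Among other transcription factors of the same families and lineages, 33 were listed, 32 were on the array and 29 were tested. In wild-type arrays 6 were higher and 18 lower in fetal liver, with a median of -1.09, beside 39.2% of all genes higher and 26.8% lower. The largest falls by moderated t were those of Klf2 (-3.23 ± 0.13, adjusted p 8.82e-08), Myb (-1.85 ± 0.08, adjusted p 1.85e-07), Klf4 (-3.84 ± 0.17, adjusted p 2.12e-07) and Etv6 (-1.61 ± 0.09, adjusted p 7.52e-07). Klf2 and Klf4 are expressed in mature lymphoid and myeloid cells, Myb in progenitors, and Etv6 is an ETS repressor. In knockout arrays 7 were higher and 19 lower, beside 36.6% and 27.1% of all genes.

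Of the 10 factors, 4 had more than 1 probe set, and these did not always behave alike. Over all 45101 probe sets without a filter, 11 of the 18 passed between tissues in wild-type and 12 of 18 in knockout arrays, where 42.4% and 39.7% of all probe sets passed. For Runx1 the 6 probe sets gave wild-type tissue differences of -2.02 (1422864_at), -1.72 (1422865_at), -1.33 (1440878_at), -0.91 (1452531_at), -0.29 (1427650_a_at) and -0.11 (1452530_a_at). The last 2 did not pass, and both were dim, with mean levels of 5.94 and 5.91. Averaging all 6 gave -1.06 in place of -2.02, still called. Across the 8 arrays, which share tissue and genotype groups, the other probe sets correlated with the brightest at r = 0.994 (1440878_at), 0.984 (1422865_at), 0.86 (1427650_a_at), 0.856 (1452531_at) and 0.342 (1452530_a_at).

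The second probe set of Fli1 (1422024_at, r = 0.895 over 8 arrays) gave a wild-type tissue difference of -1.68, close to the -1.35 of the first. The second of Gata2 (1428816_a_at, r = 0.829) gave -0.22 and did not pass. In this fit over all probe sets the brightest ones of Gata2 and Zfpm1 did not pass in wild-type arrays either (adjusted p 0.103 and 0.0793). The second of Zfpm1 (1423603_at, r = 0.535), also dim at a mean of 6.03, passed as lower in fetal liver in both genotypes, at -0.47 in wild-type (adjusted p 0.0433) and -0.53 in knockout (adjusted p 0.0269). In knockout arrays this is opposite in sign to the uncalled 0.07 of the brighter probe set.

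**Figure D3:**
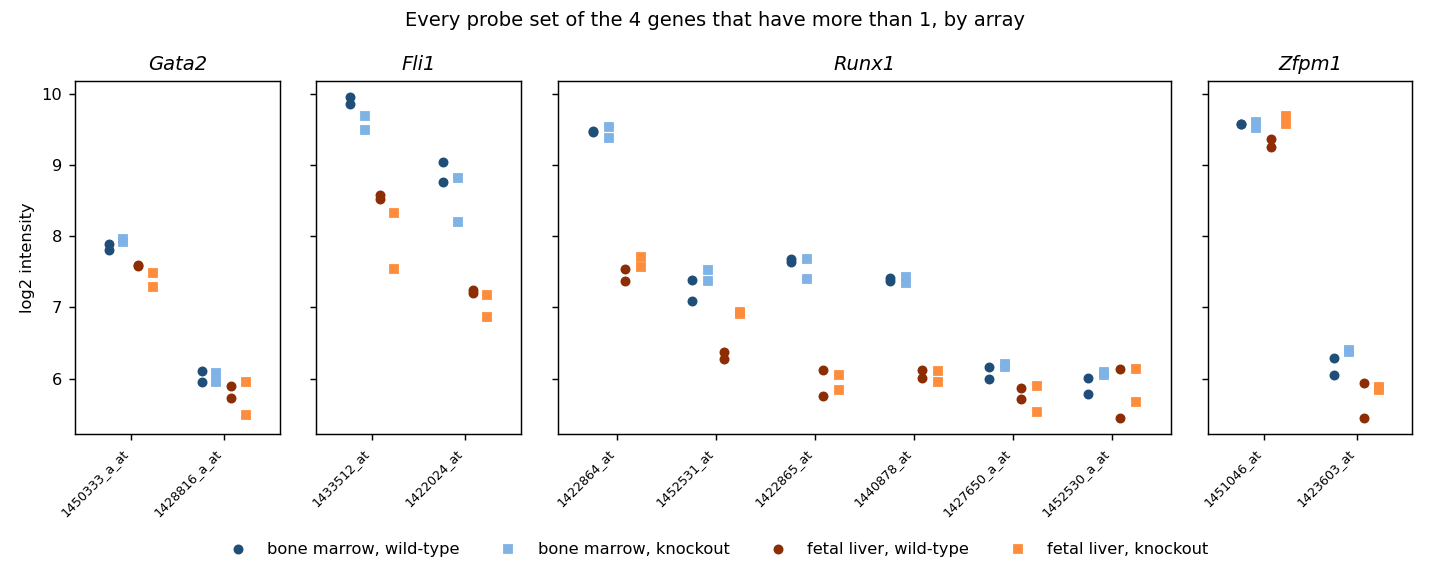
Log2 intensity (y axis) of each probe set (x axis) of Gata2, Fli1, Runx1 and Zfpm1 on the 8 arrays, coloured by group with circles for wild-type and squares for knockout. Both Fli1 probe sets and 5 of the 6 Runx1 probe sets separate the tissues, and the dimmest Runx1 probe set (1452530_a_at) does not.

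The second comparison asked whether loss of Col18a1 moved these factors in adult marrow. No factor passed the test: 0 of 10 in limma, and 0 at an unadjusted p under 0.05, where 0.411% of all genes passed (54 of 13136) and 6.74% had an unadjusted p under 0.05. Differences ran from -0.32 ± 0.21 for Fli1 (adjusted p 0.897) to 0.12 ± 0.14 for Gata1 (adjusted p 0.963), with a median of -0.01 against 0.01 over all genes. Gata1, Gata2 and Lmo2 were higher and Fli1 lower on both knockout arrays than on both wild-type arrays. These 4 of 10 compare with 43.1% of all genes without overlap (23.8% higher and 19.3% lower). They were read on the brightest probe sets. The groups overlapped on the second probe sets of Gata2 (-0.02 ± 0.16) and Fli1 (-0.39 ± 0.20). None of the 18 probe sets passed either, where 0.109% of all probe sets did. All 95% intervals held 0, and together they ran from -0.81 (the lower bound for Fli1) to 0.44 (the upper bound for Gata1).

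The megakaryocyte genes that Gata1, Fli1, Runx1 and Nfe2 are known to activate differed in the same arrays. Of 19 listed, 17 were on the array and 16 were tested, all 16 had a negative difference (median -1.05), and 11 passed as lower in knockout marrow, against 0.365% of all genes. Tubb1, the platelet tubulin and an Nfe2 target, was at 11.29 and 10.90 in wild-type and 9.59 and 9.68 in knockout marrow and fell by 1.46 ± 0.13 (adjusted p 0.00682). Vwf, the von Willebrand factor, was at 8.75 and 8.30 against 7.18 and 6.98 and fell by 1.44 ± 0.16 (adjusted p 0.0111). The platelet chemokine Ppbp fell by 1.05 ± 0.10 (adjusted p 0.00682) and the platelet receptor Treml1 by 1.12 ± 0.11 (adjusted p 0.009). Summed over the 17 genes, intensity was 21862 and 18174 on the wild-type and 9397 and 9689.9 on the knockout marrow arrays. Every one of the 10 intervals of the factors lay above the list median of -1.05. The list was chosen with earlier results of these data known. In bulk marrow, fewer megakaryocytes cannot be told apart from less of these RNAs per cell, and neither was tested. The count of 11 was 1 without wild-type marrow replicate 1, 0 without either knockout marrow array, and 0 when only the 4 marrow arrays were fitted.

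Other genes around the factors gave 0 calls in marrow in limma: 0 of 16 cofactors (median -0.04), 0 of 29 related factors (median -0.07) and 0 of 20 erythroid genes (median 0.06). The nearest to the threshold among related factors was Elf1, an ETS factor, at -0.38 ± 0.10 (adjusted p 0.367). Summed erythroid intensity was 110292 and 114570 in wild-type and 118134 and 116353 in knockout marrow. Of 9 tested stem and progenitor markers 1 was lower, Slamf1 (-1.04 ± 0.14, adjusted p 0.023), beside 0.365% of all genes. Of these 9 differences 3 were positive and 6 negative (median -0.08). Megakaryocytes also express Slamf1, and their part in its difference was not tested.

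**Figure D4:**
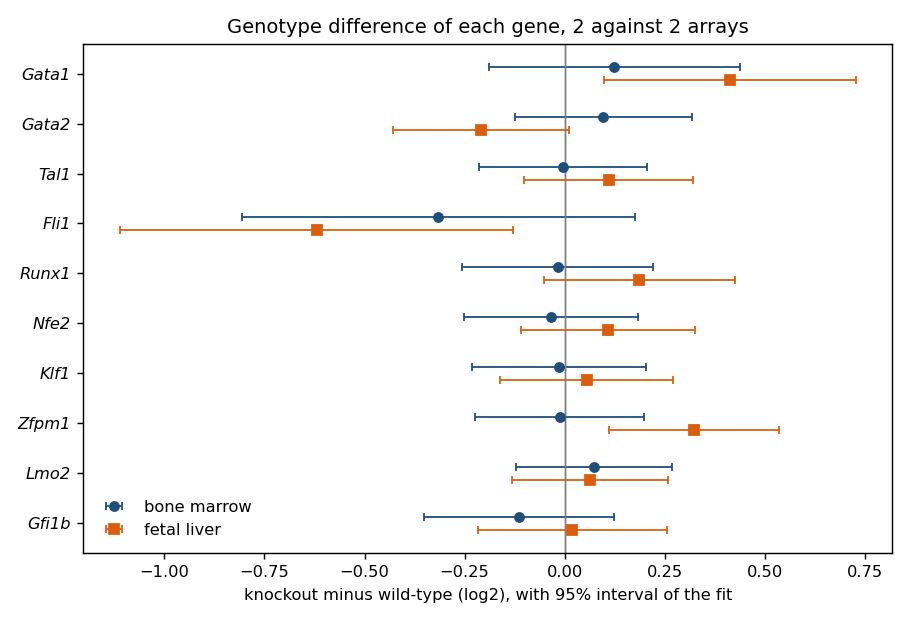
Knockout minus wild-type (x axis, log2) for each of the 10 factors in bone marrow (circles) and fetal liver (squares), with 95% intervals of the fit. All bone marrow intervals hold 0, and in fetal liver those of Gata1, Fli1 and Zfpm1 do not, although none passed after adjustment over all genes.

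The same question in fetal liver gave 0 of 10 factors past the adjusted threshold in limma. Over all genes 0.32% passed (42 of 13136), and 3 of 10 factors had an unadjusted p under 0.05, as did 22% of all genes. The median difference was 0.09 over the 10 factors and -0.03 over all genes. For 8 of 10 the groups did not overlap, 6 higher and 2 lower in knockout, against 50.1% of all genes (19.9% higher and 30.2% lower). Among the 18 probe sets 0 passed, where 0.0554% of all did.

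The 3 factors with the smallest p were Zfpm1, Gata1 and Fli1, whose levels are given above. Zfpm1 was 0.32 ± 0.09 higher in knockout (adjusted p 0.119, 1.25-fold), both knockout arrays being above both wild-type arrays. Its second probe set gave 0.16 ± 0.16. Gata1 was 0.41 ± 0.14 higher (adjusted p 0.148, 1.33-fold), with one knockout array well above and the other just above the wild-type arrays. Gata1 is X-linked, and Xist and the Y-linked genes separate the same arrays. Fli1 differed by -0.62 ± 0.21 (adjusted p 0.158, 1.54-fold lower), with the lowest value on knockout replicate 1 at 7.55, and its second probe set gave -0.20 ± 0.20. Without knockout fetal liver replicate 2, Gata1 was at 0.60 (adjusted p 0.0382) and Fli1 at -1.01 (adjusted p 0.0163), both then called, while the count over all genes went from 42 to 1010. The knockout group is then a single array, assumed to vary like the other groups. Without knockout replicate 1, Gata1 was at 0.23 and Fli1 at -0.23.

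Gata2 differed by -0.21 ± 0.10 in knockout fetal liver (adjusted p 0.248), both knockout arrays being below both wild-type arrays. Runx1 was 0.19 ± 0.10 higher on its brightest probe set (adjusted p 0.33). A single Runx1 probe set, 1452531_at, stood apart from the rest at 6.27 and 6.38 in wild-type and 6.94 and 6.91 in knockout, a difference of 0.60 ± 0.13 (adjusted p 0.126 over all probe sets). The other 5 Runx1 probe sets lay between -0.07 and 0.19. Tal1 and Nfe2 each differed by 0.11, Lmo2 by 0.06, Klf1 by 0.05 and Gfi1b by 0.02, with adjusted p from 0.518 to 0.932.

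In fetal liver 0 of 16 megakaryocyte genes passed (median -0.11), and their summed intensity was 9764 and 9697 in wild-type and 9356 and 9394 in knockout. The erythroid list gave 0 of 20 (median 0.13), and summed 101093 and 104915 in wild-type against 114034 and 110586 in knockout, without overlap. Taken singly, 50.1% of all genes did not overlap in this comparison. Ank1 and Ermap, genes of the red cell membrane, were 0.41 ± 0.09 and 0.39 ± 0.09 higher (adjusted p 0.0996 for both). Of the 20 erythroid differences 15 were positive and 5 negative, where 44.8% of all genes were positive. In marrow the list also had 15 positive and 5 negative, where 54.4% of all genes were positive. The lowest in fetal liver was that of Epb42, another red cell membrane gene, at -0.34 ± 0.20 (adjusted p 0.34), named here after its values were seen. The part of red cell content in the Gata1 and Zfpm1 differences was not tested. Among cofactors 0 of 16 passed, with Chd4, a chromatin remodeller of the repressor complex that Zfpm1 recruits, at 0.98 ± 0.22 (adjusted p 0.0962). Its arrays read 8.50 and 8.13 in wild-type and 9.60 and 8.98 in knockout. Among related factors 0 of 29 passed, the nearest being Sox6, a repressor of embryonic globin, at 0.50 ± 0.09 (adjusted p 0.0708), and Etv6 at 0.46 ± 0.09 (adjusted p 0.0834). With limma's trend and robust options 3 erythroid genes, 1 cofactor and 3 related factors were called in place of 0. Over all genes, the alternatives other than leaving out 1 array gave 4 to 409 calls in place of 42. Without knockout fetal liver replicate 2 the counts of these 3 lists rose too, as did the count over all genes.

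**Figure D5:**
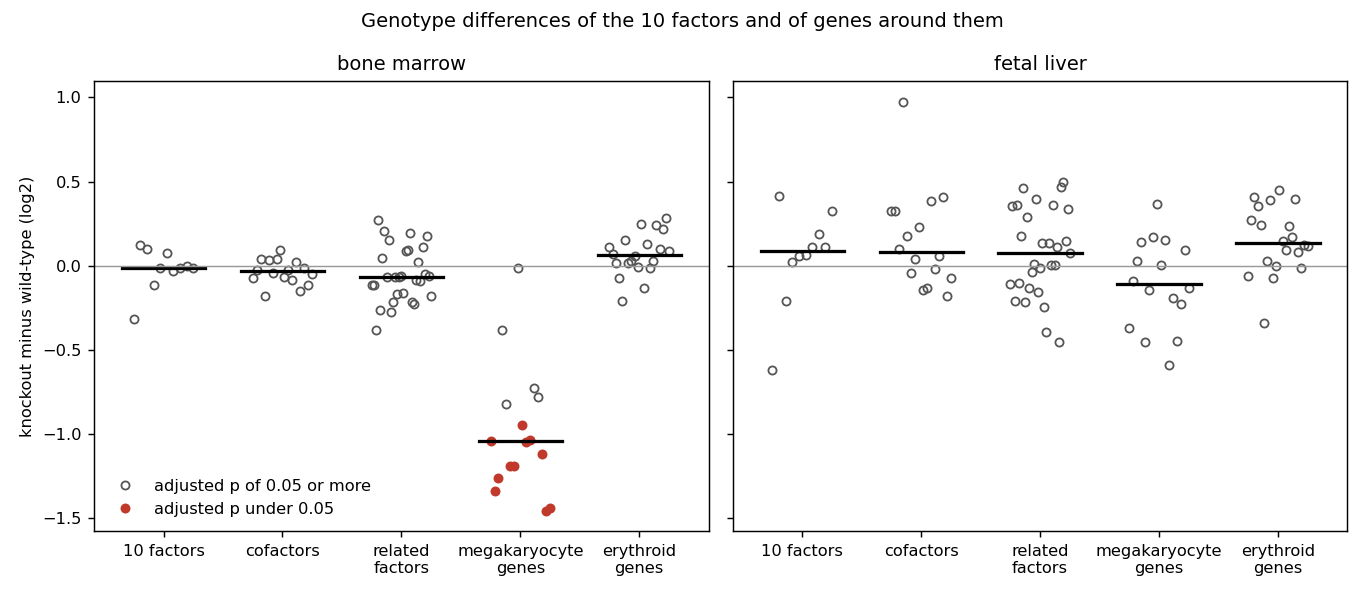
Knockout minus wild-type difference (y axis, log2) of every tested gene of 5 groups in bone marrow (left) and fetal liver (right), with filled red points for adjusted p under 0.05 and a bar at each group's median. In bone marrow the median of the megakaryocyte genes is -1.05 and that of the 10 factors -0.01.

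Whether the genotype difference itself differed between tissues was tested as an interaction. It uses the fetal liver genotype difference, so it cannot be told apart from the sex of the pools either. Of 4 sex-linked genes tested, 3 were called higher and 1 lower, and they are part of the shares of all genes given here. In limma 0 of 10 factors passed, where 0.0914% of all genes did (12 of 13136), and 1 factor had an unadjusted p under 0.05, as did 15.7% of all genes. That factor was Zfpm1, with fetal liver minus marrow at 0.34 ± 0.13 (adjusted p 0.281), followed by Gata2 at -0.31 ± 0.14 (adjusted p 0.327). The second, dim probe set of Zfpm1 gave -0.06 ± 0.23, opposite in sign. In the limma fit over all probe sets the brightest one of Zfpm1 had an unadjusted p of 0.0556. The median was 0.12 over the 10 factors and -0.04 over all genes. Of the 16 megakaryocyte genes 2 passed, Ppbp (1.20 ± 0.14, adjusted p 0.0353) and Tubb1 (1.56 ± 0.19, adjusted p 0.0471), both as higher, against 0.0685% of all genes. Leaving out any single array other than wild-type marrow replicate 2 or knockout fetal liver replicate 2 took that count from 2 to 0, and without either of those it was 5 and 4.

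Averaged over both tissues, the knockout difference again passed for 0 of 10 factors in limma, against 0.198% of all genes (26 of 13136), and 3 had an unadjusted p under 0.05, as did 14.1% of all genes. These were Fli1 at -0.47 ± 0.15 (adjusted p 0.274), Gata1 at 0.27 ± 0.10 (adjusted p 0.309) and Zfpm1 at 0.16 ± 0.07 (adjusted p 0.342). No factor had all knockout arrays on one side of all wild-type arrays, which held for 1.04% of all genes. This count pools both tissues, so a gene with a tissue gap larger than its genotype difference must overlap. It is therefore no measure of the genotype difference. Without knockout fetal liver replicate 2, which leaves 1 array in that group, Fli1 was at -0.66 (adjusted p 0.0379) and was called. This average uses the arrays of both single-tissue comparisons and adds no samples to them. Through fetal liver it also carries the sex difference of the pools. Of 4 sex-linked genes tested, 3 were called higher and 1 lower in it.

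Each gene's log2 profile over the 8 arrays was centred on its own mean, to show which genes lay near the factors. The root mean square distance between profiles was taken as the measure of likeness, and it depends on how much each gene varies. Among the 10 factors, Tal1 and Klf1 were the closest pair at 0.061 (log2 units), followed by Nfe2 and Lmo2 at 0.101 and Gata2 and Lmo2 at 0.112. Tal1 and Klf1 also varied least over the arrays (SD 0.118 and 0.114). They correlated at r = 0.843, against 0.991 for Runx1 and Lmo2, which lay 0.721 apart. Gata1 and Runx1 were the most distant at 1.31. Of all tested genes, Trim28 was nearest to Gata1 (0.0558), Zfp712 to Gata2 (0.0382), Stk40 to Tal1 (0.0228) and Hrct1 to Klf1 (0.0268). Ssh2 was nearest to Runx1 (0.0558), Slc26a7 to Fli1 (0.125), Susd6 to Nfe2 (0.0301) and Rab7 to Zfpm1 (0.04). Rpusd3 was nearest to Gfi1b (0.0381), and Rhd, which encodes a red cell surface protein of the Rh family, was nearest to Lmo2 (0.0284). By this distance Fli1 thus had no gene as near as the other factors had, though Slc26a7 correlated with it at r = 0.992. The 8 arrays share tissue and genotype groups, and no test was made of these distances.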

How the data were processed

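The authors deposited, for each array, RMA intensity values on a linear scale, per the submitters' processing notes, which name no RMA version. RMA makes array distributions alike, so a shift of most genes 1 way would be removed. Here log2 was taken, and each gene was read from the brightest of its single-gene probe sets (34958 of 45101, while 932 name several genes and 9211 are unnamed). Genes had to reach 5 (log2) on 2 arrays or more, which left 13136.

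All 8 arrays entered a linear model with 4 group means (limma 3.58.1 in R 4.3.3, lmFit and eBayes, 4 residual and 4.48 prior degrees of freedom) and 6 contrasts, with two-sided tests and Benjamini-Hochberg adjustment over all genes at 0.05. Every printed adjusted p is from limma. Single probe sets and Col18a1 were fitted the same way over all 45101 probe sets with no filter. An exact permutation test of 2 against 2 arrays cannot go below p = 0.333. The number of arrays limits the precision.

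Named genes are the 10 factors, Col18a1, up to 4 genes per list and contrast with the largest moderated t, and the 3 nearest profiles per factor, and those printed were picked from these with values known. Factors and lists were chosen with earlier results of these data known. The fit was tested on simulated data. Alternatives covered the filter, probe sets, normalization, log transform, variance model, array weights, a replicate block, arrays in the fit, chromosomes X and Y, the threshold and each array left out.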

Additional observations from a re-analysis of the deposited data

How the results depend on the processing

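With 2 arrays a group, single arrays decide some calls. A group left with 1 array was assumed to vary like the other groups. The count of factors called was 0 under all alternatives run for the marrow comparison and the interaction. Leaving out 1 array gave 0 to 2 factors called for knockout against wild-type in fetal liver (Gata1 and Fli1, without knockout replicate 2) and 0 to 1 for the average of both tissues (Fli1, without the same array), and the other alternatives gave 0 for both. Between tissues the count of 8 became 6 to 8 in wild-type and 6 to 9 in knockout arrays. The calls lost were those of Gata2 and Zfpm1 in wild-type, and of Tal1 and Nfe2 in knockout. Without the filter on low values their adjusted p was 0.0716, 0.0528, 0.0725 and 0.0756, and the cause was not tested. Gata1 was left out where chromosomes X and Y were.

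Of 1294 values of single factors under the alternatives, 1214 kept direction and side of the threshold, 47 lost a call, 5 gained one, 27 uncalled differences turned sign and 1 reversed. That one was Zfpm1 between tissues in knockout arrays, 0.07 on its brightest probe set and -0.53 on the probe set with the largest SD (adjusted p 0.0164), which is another probe set of the gene.

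Over all genes, the 54 calls in marrow became 2 to 76 with 1 array left out and 3 to 109 under other alternatives, and the 42 in fetal liver 5 to 1010 and 4 to 409. The 12 interaction calls became 5 to 80 and 1 to 77, and the 26 of the average 7 to 171 and 8 to 93. Over all probe sets the tissue calls were 19139 in wild-type and 17899 in knockout, against 8663 and 8375 genes.

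The replicate numbers do not pair the arrays: deviations of same-numbered arrays correlated at r = -0.125 to -0.000777 across genes. With the replicate number as a block, 0 factors were called in each of the 4 genotype contrasts and 6 in each tissue contrast, and the count over all genes in fetal liver went from 42 to 10.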
